A study of Mus musculus with 8 samples.

Results

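Immediate early genes are the genes that neurons transcribe within minutes of stimulation, before any new protein is made. 10 of them were followed here in the cortex of Nuak1 KO mice: Fos, Fosb, Junb, Egr1, Arc, Npas4, Nr4a1, Ier2, Dusp1 and Btg2. They were chosen by symbol, and 9 of the 10 have a row among the 21165 gene rows of the count table. Ier2, which encodes a short-lived nuclear protein, was not analysed here. The data are RNA-seq counts from the cortex of 8 mouse embryos at E18.5, 4 KO and 4 WT, where KO embryos carry a constitutive inactivation of Nuak1, a kinase of the AMPK-related family. The inactivation is present in all tissues of the KO embryos, and KO animals do not survive birth, so the cortex was sampled just before term, with no stimulus applied. The labels list 2 males among the KO and 1 male among the WT embryos, from 3 litters, but the columns of the table name only the genotype and a running number. Litter is unknown for each library, and sex was not read from the counts, so neither entered the comparison. Libraries are named by genotype and that number.

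Stimulation of a neuron raises calcium and activates kinases that phosphorylate factors already bound to these promoters, above all CREB at the cAMP response element (CRE) and SRF with its partners at the CArG box. The first genes to respond encode transcription factors (Fos, Fosb, Junb, Egr1, Npas4, Nr4a1), a synaptic protein (Arc) and inhibitors that end the response or the cell cycle (Dusp1, Btg2). Their mRNAs are short-lived, and levels in unstimulated tissue are low. Several also respond to growth factors, stress and tissue handling. In the embryonic cortex, Btg2 is in addition a known marker of progenitors that are about to produce neurons.

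RefSeq promoters (250 bases before to 50 after the start, GRCm38.p6) were examined for 7 members. Those of Egr1, Arc and Ier2 were not examined, so the motif counts do not cover these genes. The promoter stretches below are shown because all 7 held the CRE core TGACG on either strand, against 20.8% of 32851 promoters. The full CRE, TGACGTCA, which includes the core, was found in 2 of the 7, Dusp1 and Btg2, against 1.79% of promoters. Capitals mark the core or the full element, read 5′ to 3′ along the strand of the gene, with 25 bases on each side.

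Fos: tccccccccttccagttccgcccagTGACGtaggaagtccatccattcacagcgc
Fosb: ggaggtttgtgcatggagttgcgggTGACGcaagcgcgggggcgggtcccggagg
Junb: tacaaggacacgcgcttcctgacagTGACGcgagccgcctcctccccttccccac
Npas4: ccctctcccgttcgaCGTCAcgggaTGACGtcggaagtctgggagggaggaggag
Nr4a1: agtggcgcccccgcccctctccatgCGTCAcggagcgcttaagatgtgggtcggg
Dusp1: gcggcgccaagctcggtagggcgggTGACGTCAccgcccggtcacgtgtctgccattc
Btg2: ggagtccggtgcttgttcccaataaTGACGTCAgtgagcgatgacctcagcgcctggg

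These stretches lie at chr12:85473799-85473853 (plus strand) for Fos, chr7:19310076-19310130 (minus) for Fosb, chr8:84978825-84978879 (minus) for Junb, chr19:4990111-4990165 (minus) for Npas4, chr15:101266781-101266835 (plus) for Nr4a1, chr17:26508583-26508640 (minus) for Dusp1 and chr1:134079289-134079346 (minus) for Btg2. The first base of the marked element stood 66 bases before the start in Fos, 60 in Fosb, 106 in Junb, 169 in Npas4, 40 in Nr4a1, 143 in Dusp1 and 166 in Btg2. In Npas4 a second core on the other strand is also in capitals, and in Nr4a1 the core lies on the other strand and reads CGTCA. The TATAAA box was found in 2 of the 7, against 13.6% of promoters. In Fos it lay 33 to 28 bases before the start, and in Junb at positions 1 to 6 counted from the start. Within these 300-base windows, the CArG box (1.63% of promoters), the AP-1 site TGACTCA (5.2%) and the EGR site GCGTGGGCG (0.612%) were found in none of the 7. A match is a match of letters only.

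KO libraries held between 11027082 and 27014858 counts and WT libraries between 9643711 and 18940484. Nuak1 lay between 11.1 and 20.5 normalized counts in KO and between 877 and 1445 in WT, so every column followed its genotype label. Normalized counts are counts brought to one common library size, the mean over the 8 libraries. KO library R1 stood apart in markers of meningeal fibroblasts, whose summed level was 638 CPM (counts per 1000000 counts) there, 24.1 to 34.1 in the other KO libraries and 19.3 to 26.2 in WT. KO R1 and KO R2 stood apart in the sum of red blood cell markers, at 192 and 287 CPM, against 36.5 to 86.3 in the other 6 libraries. Most of that sum came from 1 globin gene, Hba-a1. Over all these markers, the median deviation from the mean of the 8 libraries was 0.24 and 0.28 log2 units there. It was highest in WT R3, at 0.42. Defining genes of cortical excitatory neurons were well counted in every library, with 8175 to 10460 normalized counts of Neurod6 in KO and 5608 to 9827 in WT, and 1302 to 1537 and 1149 to 1434 of Tbr1.

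Most of the members were among the weakly represented genes. In CPM per kilobase of exon, the mean level over the 8 libraries was 4.69 for Dusp1, 2.17 for Nr4a1 and 1.38 for Btg2, against a median of 7.38 over the 12699 genes tested. Lower still were Npas4 (0.555), Egr1 (0.421), Junb (0.255), Fos (0.175), Arc (0.153) and Fosb (0.0164). Dusp1 (4.15 to 6.08 over libraries) stood clear of Nr4a1 (1.81 to 2.69). Nr4a1 and Btg2 (0.932 to 1.82) met at the edge of their ranges, and Btg2 lay above Npas4 (0.293 to 0.843) in every library. From Npas4 down to Fos and Arc, each neighbour overlapped the next in range, and their order is not resolved. Fosb (0 to 0.060) overlapped Fos (0.033 to 0.370). Some relatives of the same families were higher, with Nr4a2 at 14.9, Nr4a3 at 9.91, Jund at 4.52, Jun at 3.75 and Fosl2 at 3.17 on the same per-kilobase scale. The factors that act on these promoters were also present, with Srf at 5.64 and Creb1 at 4.74.

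**Figure D1:**
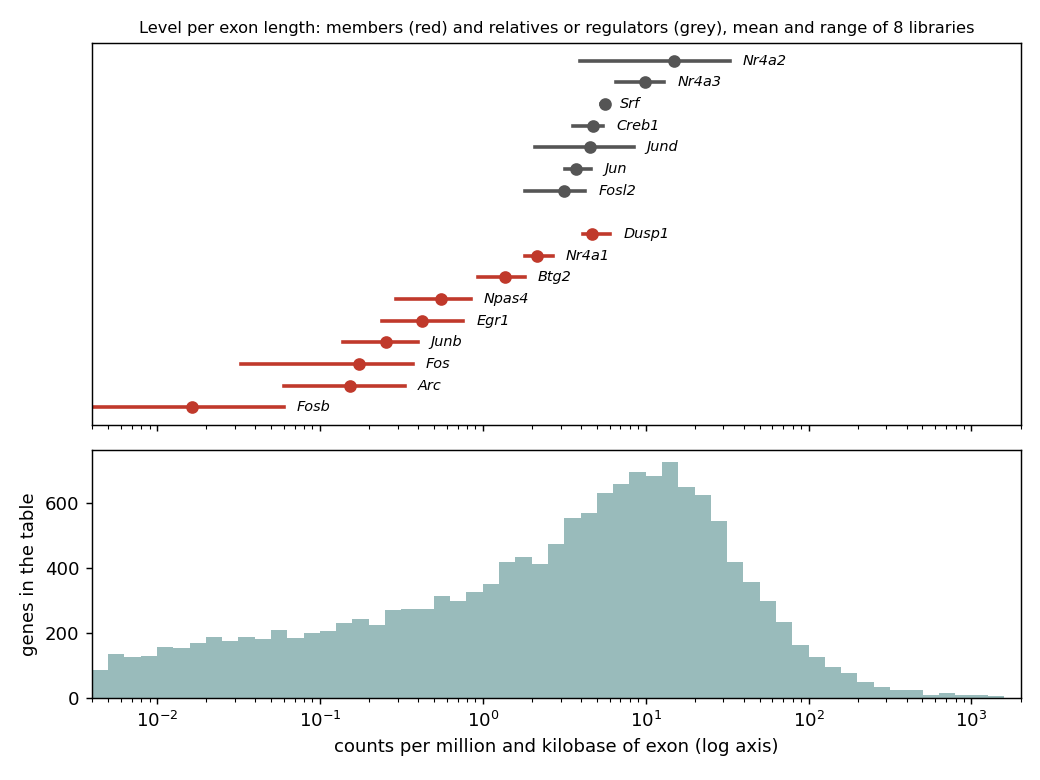
Top, level of each member with a row (red) and of relatives and regulators (grey), in CPM per kilobase of exon on a log axis, as the mean of 8 libraries (point) with the lowest and highest library as line ends; bottom, the number of genes of the table at each level. Dusp1 (4.69) and Nr4a1 (2.17) lead the members, Nr4a2 (14.9) lies above both, and the lower end of Fosb, which is 0 and cannot be placed on a log axis, is drawn at the edge.

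No member differed between KO and WT by more than the spread between embryos. The filter on low counts passed 5 of the 9 members with a row: Egr1, Npas4, Nr4a1, Dusp1 and Btg2. Of these, 0 passed an adjusted p of 0.05 in edgeR, beside 0.0709% of all genes tested, and 0 had an unadjusted p under 0.05, with edgeR or with DESeq2. At the thresholds of the study's methods, which ask for a log2 fold change beyond 0.25 in either direction with an unadjusted p below 0.05, 0 members were called, beside 4.25% of all genes. In none of the 9 did the 4 KO values lie wholly above or below the 4 WT values, beside 4.49% of genes (2.64% higher and 1.85% lower in KO). Of the 5 tested, 2 had higher and 3 lower means in KO, and the median log2 fold change was -0.04, against -0.01 over all genes. Fos, Fosb, Junb and Arc, with 58, 10, 58 and 58 counts over all libraries, did not pass the filter, so their values rest on few counts. In bulk tissue, fewer cells that express a gene and less RNA per cell cannot be told apart.

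**Figure D2:**
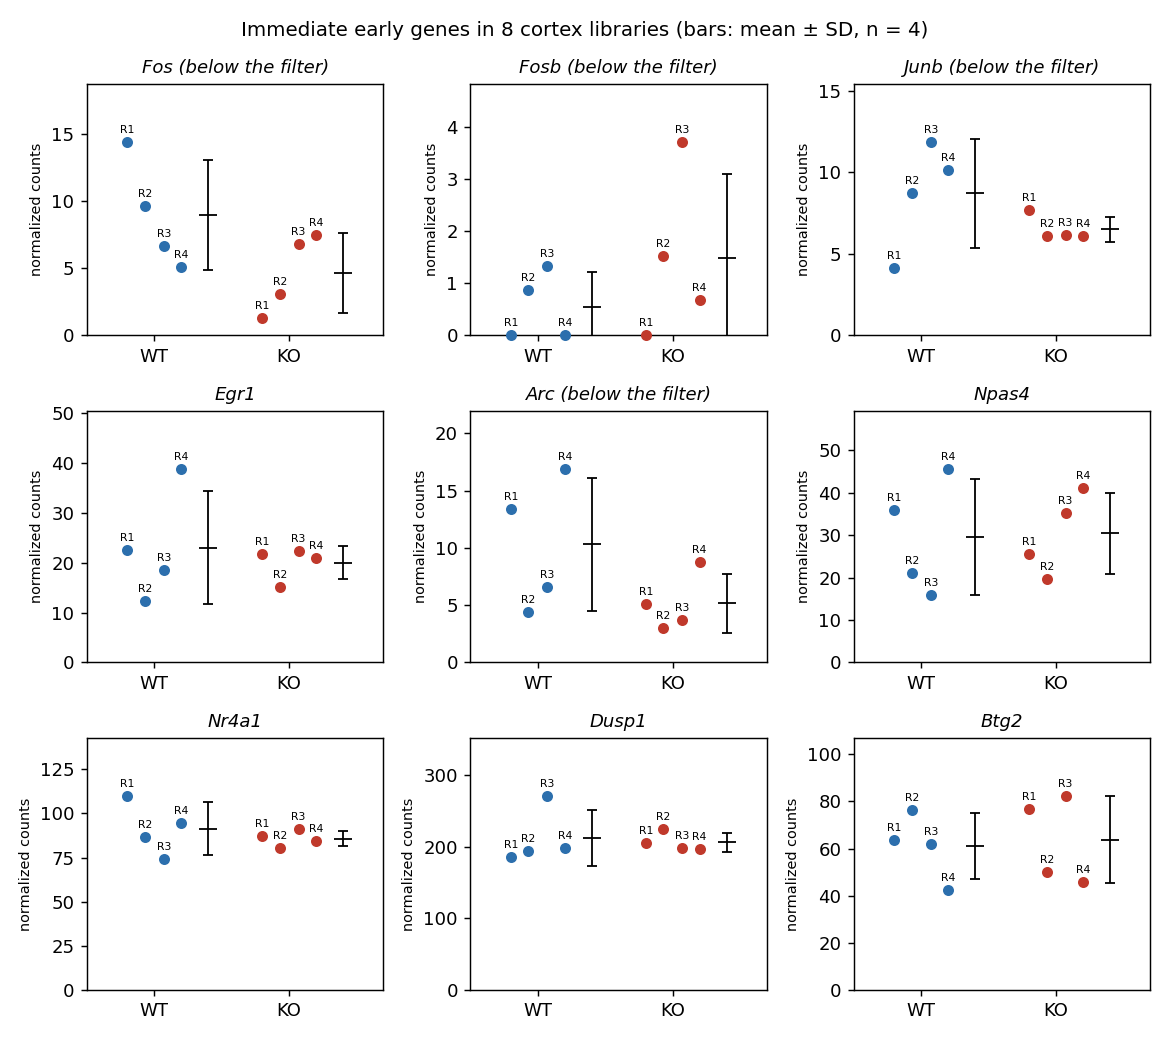
Normalized counts of each of the 9 members in the 4 KO and 4 WT libraries, with the mean as a horizontal line and the SD (n = 4) as an error bar, each panel on its own linear axis from 0, where the error bars of Fosb are cut. The genotypes overlap in every panel, from Dusp1 (206 in KO, 212 in WT) to Fosb (1.48 and 0.55).

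Fos, Fosb and Junb encode subunits of AP-1, the dimeric factor that carries the early response on to later genes. Fos (NCBIM37, chromosome 12, 86814840 to 86818223, plus strand, 4 exon blocks) had 1.28, 3.04, 6.81 and 7.42 normalized counts in KO R1 to R4 and 14.4, 9.64, 6.61 and 5.07 in WT R1 to R4. The 2 lowest values were KO R1 and R2 and the 2 highest WT R1 and R2, while R3 and R4 of both genotypes lay between. The mean was 4.64 ± 2.96 in KO and 8.93 ± 4.11 in WT (SD, n = 4), a difference within the spread (exact permutation test, 2-sided, p = 0.2). In the fit without the filter, the log2 fold change of Fos was -0.82 with a 95% interval from -1.96 to 0.32 (adjusted p = 0.852, edgeR). These counts therefore leave room for Fos in KO between 0.258 and 1.25 times its WT level.

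Junb (chromosome 8, 87500811 to 87502617, minus strand, 1 exon block) was even across KO libraries, with 7.69, 6.08, 6.19 and 6.07 normalized counts in R1 to R4. The WT libraries spread around these values, with 4.11 in R1 and 8.76, 11.9 and 10.1 in R2 to R4. Only WT R1 lay under the KO range, and the other WT libraries lay above it. The means were 6.51 ± 0.79 and 8.73 ± 3.33 (SD, n = 4; exact permutation test, 2-sided, p = 0.4). The difference in mean log2(normalized count + 1) was -0.30, and -0.58 without WT R1. Since WT R1 was the only overlapping library, its removal sets the lack of overlap by itself, and no test is given for it.

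Fosb (chromosome 7, 19888070 to 19895394, minus strand) was close to absent from the counts. It had 0, 1, 6 and 1 raw counts in KO R1 to R4 and 0, 1, 1 and 0 in WT R1 to R4. A count of 0 allowed up to 0.235 CPM in KO R1, 0.186 in WT R1 and 0.311 in WT R4, at a floor of 3 counts and for counting error only. Of the 8 counts in KO, 6 came from R3, and no difference between genotypes was detectable at this depth (exact permutation test, 2-sided, p = 0.457).

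Egr1, Npas4 and Nr4a1 are transcription factors of other families: a zinc finger protein, a bHLH-PAS protein induced in neurons by calcium entry, and an orphan nuclear receptor. Egr1 had 21.8, 15.2, 22.3 and 20.9 normalized counts in KO R1 to R4 and 22.6, 12.3, 18.5 and 38.9 in WT R1 to R4. WT R4 was the highest library and WT R2 the lowest, with all KO libraries between them. The means were 20.0 ± 3.28 in KO and 23.1 ± 11.4 in WT (SD, n = 4), and the log2 fold change was -0.12 (SE 0.34, adjusted p = 0.96, edgeR). In the annotation Egr1 overlaps Gm17507, and the strand setting of the counting is not given in the sources used here, so reads of the overlap cannot be assigned to one of them.

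Npas4 (chromosome 19, 4984355 to 4989971, minus strand, 8 exon blocks) had 25.6, 19.8, 35.3 and 41.2 normalized counts in KO R1 to R4 and 36.0, 21.0, 15.9 and 45.6 in WT R1 to R4. Both genotypes spanned the same range, with WT R4 again at the top and WT R3 at the bottom. The log2 fold change was 0.12 (SE 0.34, 95% interval -0.64 to 0.87, adjusted p = 0.96, edgeR), so that a KO level between 0.643 and 1.83 times that of WT is compatible with these libraries. Npas4 acts as a dimer with ARNT proteins. The log2 fold changes of these partners were -0.12 for Arnt and 0.03 for Arnt2 (adjusted p = 0.753 and 0.945, edgeR).

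Nr4a1 (chromosome 15, 101097277 to 101105223, plus strand, 7 exon blocks) was better counted, with 711 counts in all. It had 87.1, 80.6, 91.0 and 84.3 normalized counts in KO R1 to R4 and 110, 86.8, 74.0 and 94.6 in WT R1 to R4. The KO libraries lay inside the WT range. The log2 fold change of -0.09 (SE 0.15, adjusted p = 0.922, edgeR) had an interval from 0.751 to 1.18 times the WT level.

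Arc, the synaptic protein that takes part in the removal of AMPA receptors from the synapse, lies on chromosome 15 (74499513 to 74503000, minus strand, 3 exon blocks). It had 5.13, 3.04, 3.71 and 8.77 normalized counts in KO R1 to R4 and 13.4, 4.38, 6.61 and 16.9 in WT R1 to R4. WT R1 and R4 exceeded every KO library, and WT R2 and R3 lay within the KO range. The means of 5.16 ± 2.56 and 10.3 ± 5.82 (SD, n = 4) did not differ beyond this spread (exact permutation test, 2-sided, p = 0.171). Without the filter the log2 fold change of Arc was -0.86 (SE 0.53, adjusted p = 0.848, edgeR), with an interval from -2.01 to 0.29.

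Dusp1 encodes a nuclear phosphatase that switches off MAP kinases, and it was the best counted member, with 1644 counts. On chromosome 17 (26642535 to 26645464, minus strand, 2 exon blocks), it had 205, 225, 199 and 196 normalized counts in KO R1 to R4 and 185, 195, 271 and 198 in WT R1 to R4. All values but that of WT R3 lay between 185 and 225. The log2 fold change of -0.04 (SE 0.13, adjusted p = 0.963, edgeR) bounded the KO level of Dusp1 between 0.799 and 1.18 times that of WT, the narrowest interval of the members.

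Btg2, a cofactor of mRNA deadenylation that restrains proliferation, lies on chromosome 1 (135971747 to 135975697, minus strand, 2 exon blocks). It had 76.9, 50.2, 82.3 and 45.9 normalized counts in KO R1 to R4 and 63.7, 76.2, 62.1 and 42.2 in WT R1 to R4. R4 was the lowest library in both genotypes, and the rest were interspersed. The log2 fold change was 0.05 (SE 0.24, interval 0.715 to 1.50 times the WT level, adjusted p = 0.979, edgeR). Of 12 markers of cortical progenitors, the cells in which Btg2 is known in the embryo, 11 had a lower mean in KO, with a median log2 fold change of -0.13, and 0 passed an adjusted p of 0.05.

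**Figure D3:**
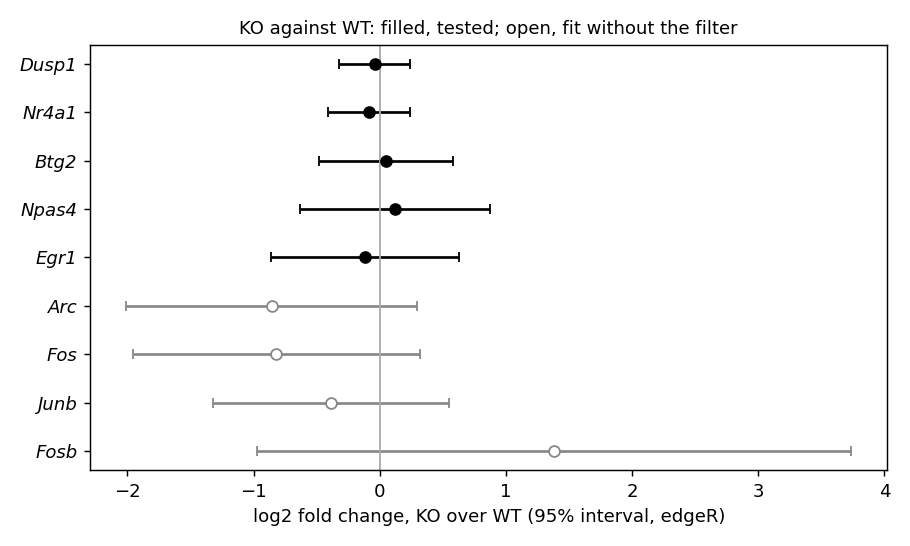
Log2 fold change of each member, KO over WT, with its 95% interval from edgeR. Filled points passed the filter on low counts, and open points come from the fit without it. All 9 intervals include 0, from Dusp1 (-0.32 to 0.24) to Fosb (-0.97 to 3.74).

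Library by library, no embryo had all 9 members above or all 9 below their mean. The sum of the 9 members was between 24.5 and 27.2 CPM in KO and between 25.1 and 28.3 in WT. Most of this sum came from Dusp1 and Nr4a1, with means of 12.7 and 5.36 CPM over the 8 libraries, so it says little about the weaker members. The median deviation of the 9 members from their mean over the 8 libraries, in log2 units, was -0.02, -0.27, 0.11 and -0.06 in KO R1 to R4 and 0.13, -0.02, 0.03 and 0.10 in WT R1 to R4. KO R2 was lowest by this measure, with 2 of its 9 members above their mean, and KO R3 and WT R1 had 6 each. In KO R1, the library with the high meningeal markers, Fos and Fosb were at their lowest values of all libraries (Fosb equal to WT R1 and R4), and Dusp1, Nr4a1 and Egr1 lay between the lowest and the highest WT library. Without KO R1, 0 members were called by either rule and the median log2 fold change of the 5 tested was -0.03. KO R1 and R2, the libraries high in the globin gene Hba-a1, were also the lowest in Fos. Without both, 0 members were called and 0 lacked overlap. The difference of Fos in mean log2(normalized count + 1) went from -0.91 to -0.19. Since the lowest Fos values were the ones left out, their removal shrinks this difference by itself, and no conclusion is drawn from it. The part of meningeal and red blood cells in the values was not tested.

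The 4 members below the filter, summed per library, gave 0.863 (0.431 to 1.54), 0.816 (0.373 to 1.55), 1.22 (0.841 to 1.72) and 1.39 (0.963 to 1.94) CPM in KO R1 to R4, with 95% exact Poisson intervals in parentheses. The same sum gave 1.93 (1.31 to 2.73), 1.43 (0.939 to 2.07), 1.60 (0.978 to 2.47) and 1.97 (1.19 to 3.08) in WT R1 to R4. All WT sums lay above all KO sums, but KO R4 and WT R2 were nearly equal and the intervals of most libraries overlapped. This sum was formed after the values had been seen, so it is given without a test, and the intervals cover counting error only.

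**Figure D4:**
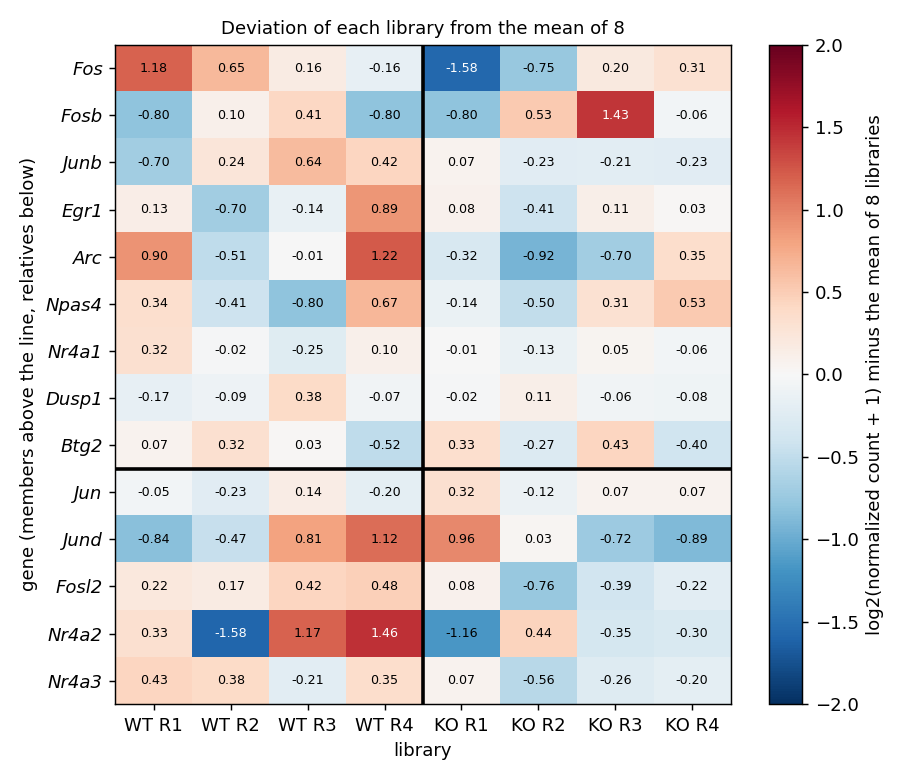
Deviation of log2(normalized count + 1) from the mean of the 8 libraries, with the 9 members as rows above the line, 5 relatives below it and WT R1 to R4 and KO R1 to R4 as columns; the number is printed in each cell and the colour scale runs from -2 to 2. In no column do all members share a colour, and the strongest colours among the members are in Fos (-1.58 in KO R1) and Fosb (1.43 in KO R3).

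As counted, the 9 members showed no common rise and fall as one group. Of 36 pairs, 18 had a positive Pearson correlation over the 8 libraries, with a median r of -0.03. Pairs with Fos, Fosb, Junb or Arc rest on 58, 10, 58 and 58 counts in all and carry large counting error. Shared variation of these members may therefore not show in them. Egr1, Arc, Npas4 and Nr4a1 were positively correlated in all 6 of their pairs, with r between 0.44 (Egr1 with Nr4a1) and 0.74. These 4 were picked out after the values were seen. The extremes were Egr1 with Arc (r = 0.74) and Nr4a1 with Dusp1 (r = -0.81). All points share their library and its depth, so these are descriptions. Egr1, Arc and Npas4 had their highest value in the same library, WT R4. In that library, genes with a GC content over 55% were 0.0575 higher than their mean at the median, in log2 units, and the part of GC content in these values was not tested beyond the removal of its trend, after which the log2 fold change of Egr1 was -0.11 and that of Npas4 0.12. Outside the members, the genes whose levels over the 8 libraries most resembled the mean of the 5 tested members were Morn2 (r = 0.954), Srm (0.947), Spryd4 (0.938), Cftr (0.931) and Tasp1 (0.926). Those nearest to Fos were Tmed8 (r = 0.951), Cabp1 (0.940) and Fbxw5 (0.935). Egr1 was most like Il18 (0.965), Pcsk4 (0.964) and Epm2a (0.963), and Btg2 most like Kpna2 (0.964), 2510006D16Rik (0.961) and Rdm1 (0.946).

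Egr1, Dusp1, Nr4a1 and Junb varied less among KO than among WT embryos. The coefficient of variation was 16.3% in KO and 49.3% in WT for Egr1, 6.33% and 18.7% for Dusp1, 5.12% and 16.5% for Nr4a1, and 12.1% and 38.2% for Junb. Npas4 (31.5% and 46.1%) and Arc (49.5% and 56.4%) had the same order, and Btg2 (28.9% and 23.0%) and Fos (63.8% and 46.0%) the opposite one. Counting alone would give 20.6% and 23.4% for Egr1, 6.59% and 7.43% for Dusp1 and 10.1% and 11.2% for Nr4a1, so the KO libraries of these 3 differed by no more than counting error. For Junb it would give 37.1% in both genotypes, about the spread seen in WT and above that seen in KO. The difference in spread was not tested, and in Egr1 and Dusp1 it rests on 1 WT library each, R4 and R3. Against other genes of like abundance, the dispersion fitted by edgeR was 0.482 times the trend for Nr4a1, 0.759 for Dusp1, 1.04 for Egr1, 1.15 for Btg2 and 1.47 for Npas4, which put Npas4 at percentile 87.1 of the genes tested.

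Against genes of like abundance, variation between libraries was far larger in some relatives than in the tested members. No dispersion was fitted for the members below the filter. Nr4a2, the sister receptor of Nr4a1 and a marker of subplate neurons, had 356, 1084, 624 and 650 normalized counts in KO R1 to R4 and 1002, 266, 1802 and 2194 in WT R1 to R4. Its dispersion was 30.2 times the trend. Jund, the AP-1 partner that is present without stimulation, had 359, 189, 111 and 99.2 in KO and 103, 133, 324 and 402 in WT, at 10.2 times the trend. High and low libraries occurred in both genotypes, and neither gene was called (log2 fold changes of -0.95 and -0.35, adjusted p = 0.723 and 0.905, edgeR). Jund was highest in KO R1 and R2 and WT R3 and R4, the libraries with the fewest counts. The part of depth in its values was not tested. Leaving out single libraries moved Nr4a2 between -1.30 (without WT R2) and -0.58 (without WT R4) and Jund between -0.85 (without KO R1) and 0.011 (without WT R4).

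Among the AP-1 partners, 6 of 9 genes were tested, 4 with a higher and 2 with a lower KO mean, and 0 reached an adjusted p of 0.05. At the thresholds of the study 1 was called, Fosl2, which was lower in KO, beside 1.8% of all genes. This FOS relative had 313, 175, 226 and 254 normalized counts in KO and 344, 332, 398 and 412 in WT. Its 4 KO values lay below all WT values, and the log2 fold change was -0.61 (SE 0.15, unadjusted p = 0.00206, adjusted p = 0.364, edgeR). With DESeq2, the adjusted p of Fosl2 was 0.0350. Jun, the main partner of FOS, had a log2 fold change of 0.17 (adjusted p = 0.803, edgeR). Of 12 other immediate early regulators, 11 were tested, 8 with higher and 3 with lower KO means, and 0 were called. Their median log2 fold change was 0.12. Myc (0.22) and Klf10 (-0.23) had the smallest p of that list (adjusted p = 0.710 and 0.745, edgeR).

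Of the EGR and NR4A relatives, 4 of 7 were tested and all 4 had lower means in KO, with a median log2 fold change of -0.40. At the thresholds of the study 2 were called lower (1 to 3 when single libraries were left out), beside 1.8% of all genes, and 0 passed an adjusted p of 0.05. Nr4a3, the remaining receptor of the family, had 998, 646, 798 and 830 normalized counts in KO R1 to R4 and 1288, 1239, 823 and 1216 in WT R1 to R4. Only WT R3 fell among the KO values, and the log2 fold change was -0.48 (SE 0.15, unadjusted p = 0.00812, adjusted p = 0.516, edgeR). Nab1, a corepressor that binds EGR proteins, had a log2 fold change of -0.33 (adjusted p = 0.612, edgeR). The members of these families, Egr1 and Nr4a1, had log2 fold changes nearer to 0 (-0.12 and -0.09).

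Scg2 and Inhba stood out in a list of activity-regulated effector genes. Of 21 such effectors, 18 were tested, 11 with higher and 7 with lower means, and 2 reached the thresholds of the study, both higher, beside 2.45% of all genes. Inhba, which encodes the activin subunit, had 136, 167, 174 and 220 normalized counts in KO and 97.6, 105, 79.3 and 57.4 in WT. All KO values exceeded all WT values, and the log2 fold change was 1.02 (SE 0.20, unadjusted p = 0.000292, adjusted p = 0.168, edgeR; adjusted p = 0.000895, DESeq2). Scg2, a secretory granule protein, had 155, 152, 147 and 198 in KO and 85.3, 26.3, 75.3 and 132 in WT, again without overlap, at a log2 fold change of 1.09 (SE 0.34, adjusted p = 0.522, edgeR). Homer1, a scaffold protein of the synapse and the best known of the list beside Bdnf, had a log2 fold change of -0.01, and Bdnf had a level of 0.0479 CPM per kilobase.

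The factors and kinases upstream of the members had log2 fold changes close to 0 at the median. Of 34 genes, all tested, 10 had higher and 24 lower means, with a median log2 fold change of -0.06. Srf and Creb1, which bind the CArG box and the CRE, had log2 fold changes of 0.00 and 0.04. At the thresholds of the study 1 was called higher, beside 2.45% of all genes, and 3 lower, beside 1.8%. Mef2c, a calcium-responsive factor, was higher (0.36). Camk4, a kinase of CREB (-0.62), Mkl2, a cofactor of SRF (-0.27), and Crtc3, a coactivator of CREB (-0.27), were lower. None of the 4 passed an adjusted p of 0.05 (0.440, 0.483, 0.489 and 0.624, edgeR).

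Relatives of Dusp1 and Btg2 gave 1 call at the same thresholds, lower in KO, beside 1.8% of all genes. Dusp4, another nuclear MAP kinase phosphatase, had 442, 351, 444 and 385 normalized counts in KO and 561, 489, 626 and 507 in WT. All KO values lay below all WT values, and the log2 fold change was -0.42 (SE 0.10, unadjusted p = 0.0018, adjusted p = 0.350, edgeR; adjusted p = 0.0477, DESeq2). The 8 phosphatases and Sprouty genes together, inhibitors of the same kinase cascade, summed to 46.9 to 64.0 CPM in KO and 64.0 to 68.5 in WT. Most of this sum came from Dusp4 and Dusp6, with means of 28.8 and 18.1 CPM over the 8 libraries. It therefore says little about the others. Of the 8 genes, 3 had higher and 5 lower means in KO. In the BTG and TOB family with its decay factors, 8 of 8 genes were tested and 0 were called, with Tob2 at 0.35 and Zfp36l1 at 0.21 on the log2 scale.

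**Figure D5:**
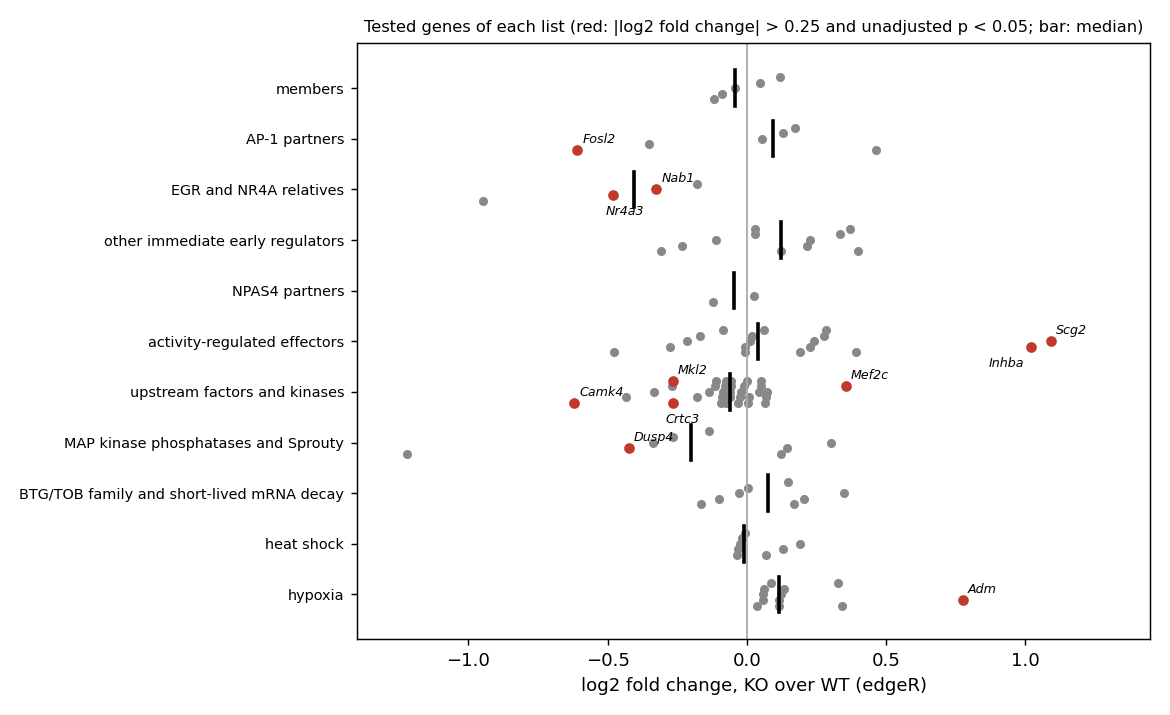
Log2 fold change, KO over WT (edgeR), of every tested gene of each list, 1 row a list, with the median as a bar. Red points have an absolute value over 0.25 and an unadjusted p under 0.05. The members (median -0.04) have no red point, while Inhba (1.02), Scg2 (1.09), Fosl2 (-0.61), Camk4 (-0.62), Dusp4 (-0.42) and Adm (0.77) do.

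Lists for stress and handling, to which several members respond, were examined in the same way. Of 11 heat shock genes, 8 were tested and 0 were called, with a median of -0.01 and sums of 2782 to 3084 CPM in KO and 2600 to 2973 in WT. The stress-induced Hspa1a and Hspa1b did not pass the filter on low counts. Hspe1 (0.19) and Hsp90aa1 (0.13) had the smallest p among the heat shock genes (adjusted p = 0.631 and 0.646, edgeR). All 12 hypoxia genes had higher means in KO, with a median log2 fold change of 0.12 and 0 past an adjusted p of 0.05. Their sums were 1490 CPM in KO R1, 1210 to 1388 in the other KO libraries and 1050 to 1419 in WT. Among the hypoxia genes, Adm, a vasodilator peptide, was called at the thresholds of the study (0.77, SE 0.20, adjusted p = 0.421, edgeR). At these thresholds 2.45% of all genes were higher in KO.

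Markers of cell types were measured beside the members. At the thresholds of the study, which 4.25% of all genes passed, the endothelial Cldn5 (0.38) was higher. Bcl11b of the deep-layer neurons (-0.30) and Slc1a3 of the progenitors and glia (-0.30) were lower. None of these genes passed an adjusted p of 0.05 (0.440, 0.345 and 0.611, edgeR). The 6 meningeal markers tested all had higher means in KO, far above the rest in KO R1. Without KO R1 the log2 fold change of Col1a1 was 0.58 and that of Ptgds -0.41. Endothelial markers (11 tested, all with higher means in KO) summed to 343 CPM in KO R1, 220 to 261 in the other KO libraries and 211 to 238 in WT. Microglial markers (9 tested, all higher) gave 117 in KO R1, 73.0 to 98.8 in the other KO libraries and 62.1 to 90.7 in WT. Red blood cell markers gave 192 and 287 in KO R1 and R2, 84.2 and 37.4 in KO R3 and R4, and 36.5 to 86.3 in WT. Hba-a1, a globin gene, had 2123 and 3637 normalized counts in KO R1 and R2 and 164 to 349 in the other libraries (log2 fold change 2.44, adjusted p = 0.536, edgeR; -0.19 without KO R1 and R2). Interneuron markers (8 tested) all had lower means, with a median of -0.14. Choroid plexus markers were at 4.73 CPM in KO R1, 0.599 to 1.38 in the other KO libraries and 0.871 to 1.33 in WT, none passing the filter. Striatal (3 tested) and hippocampal neuron markers (5 tested, median -0.37) gave no gene past an adjusted p of 0.05. The part of these cells in the levels of the members was not tested.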

How the data were processed

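Per the labels and the study's methods, poly-A RNA of single embryonic cortices was sequenced with a stranded kit. After trimming (Cutadapt 1.13), the authors aligned the reads to the mm9 genome (TopHat2 2.0.13, SAMtools 0.1.19). They deposited raw counts for each gene from HTSeq-count; tool versions come from the submitters' processing notes. All 8 columns were used. Embryos are the replicates, grouped by genotype.

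KO and WT were compared by the quasi-likelihood test of edgeR 4.0.16 (R 4.3.3) after TMM scaling and filterByExpr, with Benjamini-Hochberg adjustment over 12699 genes. The edgeR fit was tested on simulated counts and the permutation test on a fixed set of values. Members below the filter were compared by an exact permutation test on log2(normalized count + 1), for which 4 against 4 libraries allow no p under 0.0286. Exon lengths, GC content and positions came from GENCODE vM1 on NCBIM37, with a length for 92.24% of rows. Promoters came from RefSeq on GRCm38.p6. CPM were scaled by effective library size, and the floors and Poisson intervals by the total count. No positions were moved between builds.

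Named were all members, Nuak1, the genes of each list past an adjusted p of 0.05 or the study's thresholds (else the 2 with the smallest p), and the genes most like the members; Jun, Jund, Nr4a2, Srf, Creb1, Homer1, Bdnf, Neurod6, Tbr1, Hspa1a and Hspa1b were named after their values were seen. Some marker genes are not reported here. Members and lists were chosen with earlier results of these data known. Alternatives were DESeq2 1.42.0 (the authors' tool), its size factors in edgeR, no filter, at least 10 counts in every library, each library left out and, chosen after seeing the data, removal of the trend with GC content and KO R1 and R2 left out together.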

Additional observations from a re-analysis of the deposited data

Results flagged for a closer look

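In 100 groups of 4 libraries, 12 held a highest or lowest library whose gap to its nearest neighbour was over 0.829 of the range of the group (Dixon's test); chance gives about 1 in 20 groups, here 5. Among the members, Junb was high in KO R1 (7.69 normalized counts) and Dusp1 was high in WT R3 (270.8). Among relatives and effectors, Nr4a3 was low in WT R3 (823) and Scg2 high in KO R4 (198).

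KO R1 was high in 6 meningeal genes, with 662 normalized counts of Dcn, 204 of Ogn, 1199 of Col1a1, 1786 of Ptgds, 2716 of Col1a2 and 3133 of Col3a1. Of the hippocampal markers, Zbtb20 stood at 89.7 in KO R1 and Fibcd1 at 51.9 in KO R4. These flags are given as values, and their cause was not tested.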

How the results depend on the processing

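With edgeR, 0 members passed an adjusted p of 0.05 or the thresholds of the study in every fit, and DESeq2, its size factors, no filter, at least 10 counts in every library and removal of the GC trend turned the direction of no tested member. Leaving out single libraries turned the sign of each of the 5 tested members in some of the 8 fits. It did so in 3 fits each for Btg2 and Npas4 and in 1 fit each for Nr4a1, Dusp1 and Egr1. Their log2 fold changes ranged from -0.12 to 0.19 for Btg2, -0.074 to 0.37 for Npas4, -0.17 to 0.017 for Nr4a1, -0.10 to 0.10 for Dusp1 and -0.35 to 0.22 for Egr1. The median of the members ranged from -0.12 to 0.02. The members without overlap between genotypes ranged from 0 to 1, the 1 being Junb without WT R1. Among other genes, signs turned for Jund (-0.85 to 0.011, positive without WT R4), Arnt2 (-0.010 to 0.067, negative without WT R2) and Ptgds (-0.41 to 4.28, negative without KO R1). Without both KO R1 and R2, signs turned for Ptgds (-0.51) and Hba-a1 (-0.19). The number of genes at the study's thresholds, with single libraries left out, ranged from 1 to 2 among AP-1 partners, 1 to 3 among EGR and NR4A relatives, 0 to 2 among other early regulators, 2 to 4 among effectors, 2 to 5 among upstream factors, 1 to 3 among phosphatases and in hypoxia, 0 to 4 among progenitor, 0 to 3 among interneuron, 1 to 7 among endothelial and 1 to 6 among meningeal markers. Of the genes at the study's thresholds, Fosl2, Nr4a3, Inhba, Scg2, Mef2c, Camk4, Dusp4 and Adm stayed past them in 8 of 8 fits with 1 library left out. Mkl2 did so in 6 (not without KO R3 or WT R4), Slc1a3 in 4 (not without R3 or R4 of either genotype), Nab1 in 3 (not without KO R1, R3 or R4 or WT R2 or R3) and Crtc3 in 2 (only without KO R1 or WT R4). Only DESeq2, of all alternatives run, brought Fosl2, Inhba and Dusp4 past an adjusted p of 0.05.

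No paired analysis was possible because the column names give neither litter nor embryo, and no label ties the running numbers to litters. Depth limits the comparison most for Fos, Fosb, Junb and Arc, whose intervals span several-fold differences.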
